A study of Rattus norvegicus with 2 samples.

Results

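The insulin-like growth factor (IGF) system of the neonatal rat cochlear duct was described here through 10 genes, the ligands Igf1 and Igf2, the receptors Igf1r and Igf2r, and the binding proteins Igfbp2, Igfbp3, Igfbp4, Igfbp5, Igfbp6 and Igfbp7. They were listed by symbol, with earlier results of these data known. All 10 were found among the 32623 genes counted in both libraries, each under 1 Ensembl identifier. Dissociated cochlear duct of Sprague-Dawley rats was captured as 1 droplet library at postnatal day 1 (P1) and 1 at postnatal day 7 (P7), each from pooled animals, with no genetic change, no treatment and no replicate of either age. The study examined how the cells of the greater epithelial ridge, a temporary ridge of tall cells beside the developing organ of Corti, changed over this week, and the comparison made here is between the ages, between cell classes and between classes across the ages. Since each age is 1 library, no test between them was possible. The exact 95% intervals printed here hold counting error alone.

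IGF1 and IGF2 are secreted growth factors that signal through the receptor tyrosine kinase encoded by Igf1r, which feeds the PI3K-Akt and MAP kinase pathways. The product of Igf2r, also known as the cation-independent mannose 6-phosphate receptor, takes IGF2 up for breakdown in lysosomes and carries lysosomal enzymes. IGF binding proteins hold the ligands outside the cell, where they can prolong ligand life, block access to the receptor or release ligand when proteases cut them, and IGFBP7 is a relative with low affinity for IGFs. Loss of IGF1 is known to cause hearing loss in mice and humans, and IGF2 is an imprinted fetal growth factor.

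After limits on genes, unique molecular identifiers (UMIs, 1 per captured transcript) and mitochondrial content, 12779 cells with a median of 6565 UMIs were kept at P1 and 12581 cells with a median of 6878 UMIs at P7. A level is the number of UMIs of a gene for every 1e+06 UMIs in the same cells (CPM), and levels were compared within a gene, across ages and classes, and not between genes, since capture at the 3' end differs from gene to gene. The labels name the cell type as greater epithelial ridge cell. Only 2.12% of cells at P1 and 1.67% at P7 fell in the cluster led by the epithelial genes Oc90, Epcam, Epyc, Cldn9 and Smoc2, whereas clusters led by mesenchyme markers held 66.7% and 49.7% of cells. The epithelial marker Epcam had a UMI in 4.94% and 4.55% of cells, against 66.4% and 80.8% for the collagen gene Col3a1, so values over all cells mainly describe mesenchyme. No cell barcode names an animal, and 60 barcode sequences occurred in both libraries.

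Over all kept cells, 2 of the 9 members with at least 10 CPM in the higher library, Igf2 and Igfbp7, were at least 2-fold higher at P7, and none was 2-fold lower. Igfbp7 lay below 2-fold in 4 of 7 alternatives, and in 2 of those, with all deposited barcodes and at a mitochondrial limit of 10%, Igfbp2 (log2 ratios of 1.02 and 1.05) was past 2-fold instead. Among all 8222 genes at that level, 9.74% were at least 2-fold higher and 6.57% at least 2-fold lower, and the median log2 ratio was 0.13, against 0.43 for the 9 members. All ratios below are on the scale of CPM, without a pseudocount. The shift of 0.13 for the median gene applies to the ratios over all kept cells. Within the cell classes given further on it ran from 0.03 in neuron-like to 0.18 in macrophage-like cells. In bulk sums of this kind, more cells of a type and more RNA of a gene per cell cannot be told apart, and the values by class are given further on.

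Of the 2 ligands, Igf2 was higher at P7 and Igf1 differed little between the ages. Igf2 measured 75.2 CPM at P1 and 171 CPM at P7, a log2 ratio of 1.18 (1.14 to 1.22). Igf1 measured 259 CPM at P1 and 241 CPM at P7, a log2 ratio of -0.11 (-0.13 to -0.08). A change larger in size than that of Igf2 was seen in 11.0% of the genes tested, and a change larger than that of Igf1 in 86.6%. An Igf2 UMI was found in 21.6% of cells at P1 and 32.0% at P7.

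The receptors differed in opposite directions. Igf1r, the signalling receptor, had 842 UMIs in the whole P1 library and 475 in the P7 library, or 8.59 and 5.10 CPM. Its log2 ratio was -0.75 (-0.92 to -0.59), and as it stayed below 10 CPM in both libraries it was not counted. Igf2r, the clearance receptor, measured 27.9 CPM at P1 and 37.2 CPM at P7, a log2 ratio of 0.41 (0.34 to 0.49).

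All 6 binding proteins among the members were higher at P7 than at P1, by amounts that ranged from slight to 2-fold. Igfbp7 measured 200.03 CPM at P1 and 422 CPM at P7, a log2 ratio of 1.08 (1.05 to 1.10). Igfbp2, at 1345 and 2680 CPM, lay just inside the 2-fold limit, with a log2 ratio of 0.995 (0.986 to 1.005). Igfbp4, at 903 and 1730 CPM, had a log2 ratio of 0.94 (0.93 to 0.95). The other binding proteins differed less. Igfbp6 measured 20.9 and 28.1 CPM, Igfbp3 measured 144 and 185 CPM, and Igfbp5 measured 968 and 1123 CPM, with log2 ratios of 0.43, 0.37 and 0.21. Igfbp1, a binding protein outside the members, had 61 UMIs at P1 and 34 at P7 and lay below 10 CPM. Its log2 ratio was -0.77 (-1.42 to -0.14).

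**Figure D1:**
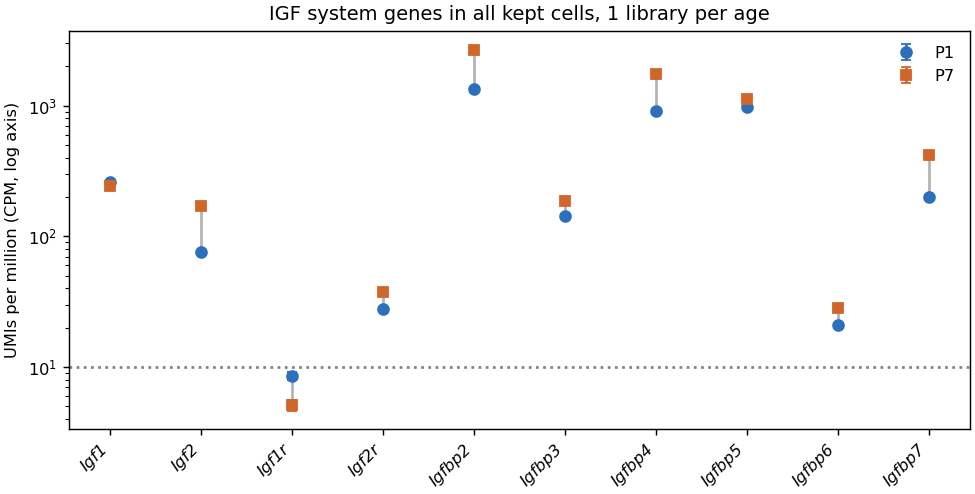
Level of the 10 IGF system genes in all kept cells of the P1 library (circles) and the P7 library (squares), as CPM on a log axis, with exact 95% counting intervals that are mostly smaller than the symbols. Igf1 and Igf1r lie lower at P7, the other 8 genes lie higher, and Igf1r lies below the dotted line at 10 CPM in both libraries.

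The next question was which cells carried each transcript. Clusters of the cells of both ages, formed without the members and without the marker genes, were gathered into 9 classes with at least 50 cells in each library. These were mesenchyme (8519 cells at P1 and 6250 at P7), dividing mesenchyme (704 and 347), glia-like (1647 and 2866), dividing glia-like (278 and 585), pericyte-like (331 and 285), endothelial-like (166 and 188), epithelial-like (271 and 210), neuron-like (386 and 139) and macrophage-like cells (190 and 174). The macrophage-like cluster was led by S100a9, Lyz2, C1qb, RatNP-3b and S100a8, of which S100a8 and S100a9 are genes of neutrophils as well. A further 265 cells at P1 and 1537 at P7 stayed unnamed, among them 1087 P7 cells led by Pmch and haemoglobin genes. For 7 of the 10 members the class with the highest CPM was the same at both ages. Of the 11073 genes with at least 10 CPM in some class, 53.7% kept theirs, and no contrast is drawn from so few members. Among the 7, Igfbp6 kept its highest class at P7 in only 2 of 7 alternatives, and Igf1r rested on 13 UMIs in its highest class at P7.

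Igf1 was highest in the epithelial-like cells at both ages, at 2139 CPM at P1 and 976 CPM at P7. The pericyte-like cells came next, at 430 and 523 CPM, and macrophage-like cells, mesenchyme and dividing mesenchyme lay between 229 and 316 CPM at P1 and between 266 and 301 CPM at P7. Glia-like cells measured 34.1 and 12.2 CPM and neuron-like cells 19.6 and 17.2 CPM. The epithelial-like cells thus had the highest level per UMI, but being few they held 19.4% of all Igf1 UMIs at P1 and 7.76% at P7, and mesenchyme held 64.2% and 65.3%.

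Igf2 belonged to the mesenchyme. At P1 it measured 124 CPM in dividing mesenchyme and 94.0 CPM in the other mesenchyme, and at P7 it measured 231 and 255 CPM, so the order of the 2 mesenchymal classes changed between the ages. Pericyte-like and endothelial-like cells measured 58.9 and 43.3 CPM at P1 and 39.8 and 26.1 CPM at P7. Glia-like and neuron-like cells were lowest, at 6.45 and 4.09 CPM at P1 and 8.80 and 7.09 CPM at P7. Mesenchyme and dividing mesenchyme held 79.1% and 12.5% of Igf2 UMIs at P1, and 78.0% and 5.87% at P7.

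Igf1r was counted at 15.2 CPM in epithelial-like cells at P1, from 35 UMIs, and at 7.29 CPM at P7, from 13 UMIs. Pericyte-like cells followed at P1 with 11.5 CPM from 22 UMIs. Apart from 3.29 CPM in endothelial-like and 1.97 CPM in macrophage-like cells, the P1 classes lay between 4.09 and 15.2 CPM, so this transcript was spread over mesenchyme, glia and epithelium rather than held by 1 class. Igf2r was highest in the pericyte-like cells, at 91.7 CPM at P1 and 88.7 CPM at P7. Mesenchyme measured 31.7 and 47.2 CPM, epithelial-like cells 30.4 and 47.7 CPM, and endothelial-like cells 30.7 and 41.2 CPM, and the levels of these classes did not differ from each other beyond their counting intervals at P1. Glia-like cells were near the low end, at 7.40 and 10.4 CPM.

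Among the binding proteins, Igfbp2, Igfbp4 and Igfbp6 were highest in the mesenchymal classes. Igfbp2 was highest in mesenchyme, at 1865 CPM at P1 and 4229 CPM at P7, and 68.0 and 129 CPM in glia-like cells. Igfbp4 was highest in the 2 mesenchymal classes, at 1145 CPM in mesenchyme and 1182 CPM in dividing mesenchyme at P1, and at 2433 and 1981 CPM at P7, and the pericyte-like cells followed with 985 and 1084 CPM. Igfbp6 measured 28.1 CPM at P1 and 44.1 CPM at P7 in mesenchyme and 27.3 and 42.7 CPM in dividing mesenchyme, values within counting error of each other, and these classes held 85.2% and 9.93% of its UMIs at P1. No Igfbp6 UMI was found in the macrophage-like cells at P1, and 1 in the epithelial-like cells.

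Igfbp7, in contrast, was highest in the vascular classes. It measured 3463 CPM at P1 and 6457 CPM at P7 in the endothelial-like cells and 2455 and 3973 CPM in the pericyte-like cells, against 105 and 342 CPM in mesenchyme. Although the 2 vascular classes made up 1.30% and 2.59% of cells at P1, they held 32.3% and 24.04% of Igfbp7 UMIs, and at P7 27.1% and 19.04%. Mesenchyme, with far more cells, held 33.3% at P1 and 42.3% at P7. After each cell was thinned to 2000 UMIs, an Igfbp7 UMI remained in 98.0% of endothelial-like and 96.0% of pericyte-like cells at P1, and in 12.6% of mesenchyme and 3.66% of glia-like cells. At P7 it remained in 98.7%, 99.6%, 31.8% and 6.48% of the cells of these classes.

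Igfbp5 was highest in the epithelial-like cells, at 1876 CPM at P1 and 2235 CPM at P7, with mesenchyme next at 1265 and 1653 CPM. Igfbp3 was the member whose leading class changed most. At P1 it was highest in the endothelial-like cells, at 713 CPM, before the epithelial-like cells at 394 CPM and the pericyte-like cells at 354 CPM. At P7 it was highest in the epithelial-like cells, at 1182 CPM, before the pericyte-like cells at 452 CPM, and the endothelial-like cells measured 198 CPM. The share of cells with an Igfbp3 UMI after thinning was 21.3% at P1 and 17.9% at P7 in epithelial-like cells. In pericyte-like cells this share was 27.6% and 40.7%. Thinning left 244 of the 271 epithelial-like cells at P1 and 140 of the 210 at P7.

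**Figure D2:**
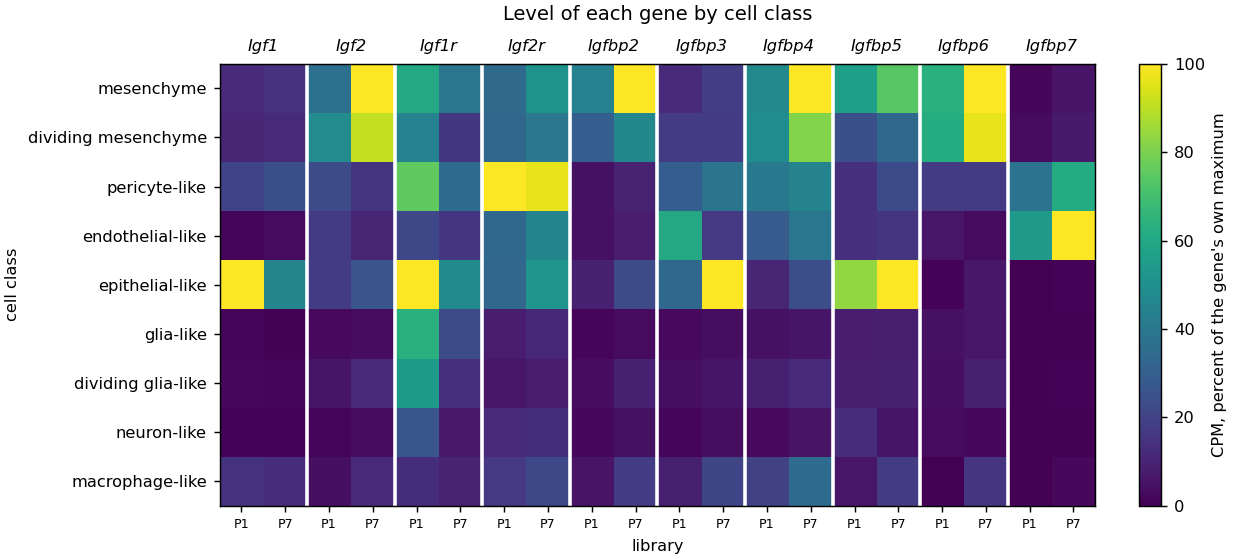
Level of each gene (column pairs, P1 and P7) in 9 cell classes (rows), as a percentage of that gene's own highest CPM over classes and ages. Igf1, Igf1r and Igfbp5 peak in epithelial-like cells, Igf2, Igfbp2, Igfbp4 and Igfbp6 in the mesenchymal classes, Igf2r in pericyte-like cells and Igfbp7 in endothelial-like cells. The highest CPM of Igfbp3 is in endothelial-like cells at P1 and in epithelial-like cells at P7, where few cells hold most of its UMIs.

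The epithelial-like class was not uniform, and the reading of its Igf1 and Igfbp3 levels depends on this. Of its 271 cells at P1, the 27 with the most Igf1 held 71.1% of its Igf1 UMIs, the median cell had 1 Igf1 UMI, and the highest had 348. Of its 210 cells at P7, 21 held 96.8% of its Igfbp3 UMIs, with 467 in the highest cell and 0 in the median cell. At P1, 69 cells (25.5%) had at least 10 Igf1 UMIs and 34 (12.5%) had at least 10 Igfbp3 UMIs, and 1 cell had both, which is 1.45% of the first set and 2.94% of the second. At P7, 37 cells (17.6%) had at least 10 Igf1 UMIs and 17 (8.10%) had at least 10 Igfbp3 UMIs, and 0 cells had both. With so few cells high in Igfbp3 at P7, little can be read from the lack of overlap at that age.

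Igfbp3 was found mainly in cells with Sox2, a transcription factor of prosensory and supporting cells, a gene that was picked after these cells had been examined. Igfbp3 measured 1161 CPM in the 77 P1 cells with a Sox2 UMI and 61.0 CPM in the 194 cells without one. At P7 it measured 2364 CPM in 98 cells with Sox2 and 51.5 CPM in 112 cells without. Igf1 was arranged the other way at P1, with 255 CPM in cells with Sox2 and 2958 CPM in cells without, but at P7 the levels were 1108 and 850 CPM. The median depth of the compared cells was close, at 7550 and 7664.5 UMIs at P1 and 6614.5 and 7066 UMIs at P7. Igfbp5 measured 2568 and 1575 CPM at P1 and 1990 and 2468 CPM at P7 in cells with and without Sox2, so it did not follow this division at both ages. The cells were also split by Tectb, a tectorial membrane gene. Igfbp3 measured 915 and 182 CPM at P1 and 1900 and 757 CPM at P7 in cells with and without Tectb. Igf1 measured 275 and 2898 CPM at P1 and 641 and 1173 CPM at P7. At P7 the median depths of this split were unlike, at 2549 and 10425 UMIs.

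**Figure D3:**
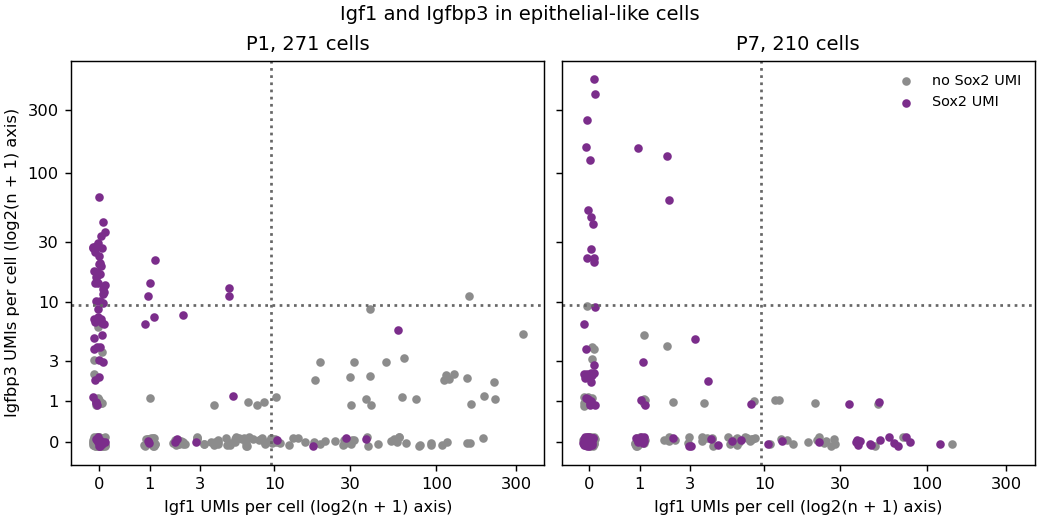
UMIs of Igf1 (x axis) and Igfbp3 (y axis) in each epithelial-like cell at P1 (left, 271 cells) and P7 (right, 210 cells), on log2(n + 1) axes with small random offsets, with cells that hold a Sox2 UMI in purple. The corner above 10 UMIs of both genes (dotted lines) holds 1 cell at P1 and 0 at P7, and the cells high in Igfbp3 are nearly all purple.

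Within mesenchyme, which held most of the Igf1 and Igf2 UMIs, the clusters differed from each other. At P1, the cluster led by Plagl1, Col1a1, Penk, Pnoc and Col6a1 (2371 cells) had the highest mesenchymal Igf1, at 469 CPM, Igf2, at 186 CPM, and Igfbp6, at 85.6 CPM. At P7, the cluster led by Col15a1, Lepr, Dcn, Inmt and Ramp3 (1890 cells) held the highest Igf1, at 620 CPM, and Igfbp6, at 83.8 CPM, together with 370 CPM of Igf2 and 906 CPM of Igfbp7. These 2 clusters carried markers of the same list, which holds Gpc3 and Vcan. Igf2 was higher still in the P7 cluster led by Sfrp4, Dlx5, Phex, Myoc and Clec11a (2147 cells), at 414 CPM, and this cluster also had the highest Igfbp4, at 3625 CPM.

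Other mesenchyme clusters had Igf2 below the level of the whole class, with Igfbp2 near or above its class level. In the P7 cluster led by Gcg, Car3, Otos, Msx3 and Cytl1 (871 cells) Igfbp2 reached 9711 CPM, the highest value of any cluster, whereas Igf2 was 34.6 CPM and Igf1 143 CPM. Otos is a gene of cochlear fibrocytes. In the P1 cluster led by Cav1, Aldh1a2, Sp5, Cfap161 and Scg3, Igf2 was 15.7 CPM and Igfbp2 1966 CPM. In the P7 cluster led by Gpr182, Tnfaip6, Tnfrsf11b, AABR07008439 and Scd, they were 39.7 and 4121 CPM. The whole class measured 94.0 CPM of Igf2 at P1 and 255 CPM at P7, and 1865 and 4229 CPM of Igfbp2. The small cluster led by Car2, Apoc4, Actg2, Meox1 and Tacr3 (83 and 121 cells) stood apart, with 711 and 1090 CPM of Igfbp7, and 121 and 215 CPM of Igfbp2.

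**Figure D4:**
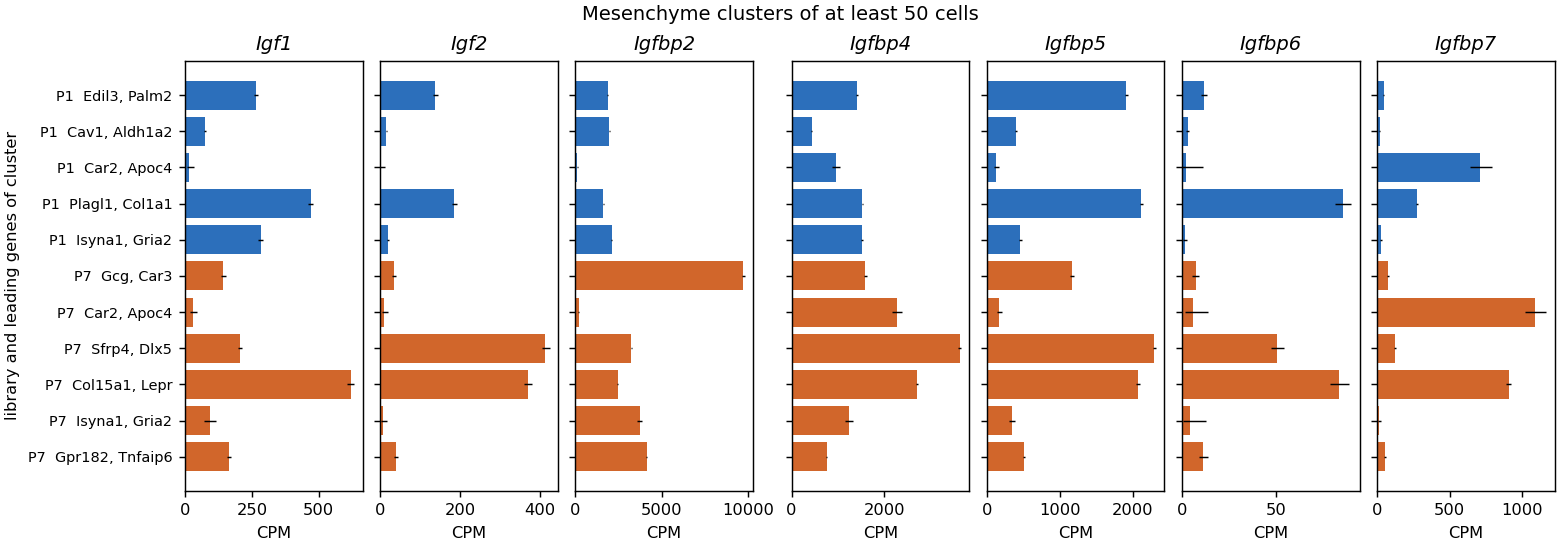
CPM of 7 members in each mesenchyme cluster with at least 50 cells of a library, P1 in blue and P7 in orange, each named by its first 2 leading genes, with exact 95% counting intervals. The Gcg, Car3 cluster reaches 9711 CPM of Igfbp2, and the clusters led by Sfrp4, Dlx5 and by Col15a1, Lepr hold the highest Igf2, at 414 and 370 CPM.

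Most mesenchyme clusters held mainly cells of 1 age, so the ages were next compared over the whole class. Within mesenchyme 4 of the 9 members tested were at least 2-fold higher at P7, against 10.8% of all genes, and none was 2-fold lower, against 5.53%. Igf2 measured 94.0 CPM at P1 and 255 CPM at P7, a log2 ratio of 1.44 (1.40 to 1.49). Igfbp7 measured 105 and 342 CPM, a log2 ratio of 1.70 (1.66 to 1.74). Igfbp2, with a log2 ratio of 1.18 (1.17 to 1.19), and Igfbp4, with 1.09 (1.07 to 1.10), were the other two. Igf1, at 263 and 301 CPM, had a log2 ratio of 0.19 (0.16 to 0.23). The class median over its members tested was 0.65, and that of all genes was 0.17. Different clusters held most of the class at the 2 ages, those led by Edil3, by Cav1 and by Plagl1 at P1 and those led by Sfrp4, by Col15a1 and by Gpr182 at P7.

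Joining the libraries before clustering gave 9 mesenchyme clusters with at least 50 cells of each age, and the comparison was repeated inside each. Igf2, Igfbp2, Igfbp4 and Igfbp7 were higher at P7 in 9 of 9 of them, and Igfbp2, Igfbp4 and Igfbp7 beyond the counting interval in all 9. The log2 ratios of Igf2 in these clusters ran from 0.05 to 2.13, those of Igfbp2 from 0.68 to 1.82, those of Igfbp4 from 0.11 to 1.37 and those of Igfbp7 from 0.53 to 2.35. Igf1 was higher in 5 and lower in 4, from -0.84 to 1.87. Igf1r, whose counts are small, was lower at P7 in 8 of these 9 clusters and in 20 of the 21 clusters of any class that had a ratio, with the interval below 0 in 9 of the 21. No cluster had an interval of Igf1r above 0.

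The sequences upstream of the 4 members that were higher together within mesenchyme are shown because they are the promoter-proximal regions of the genes that moved. They are the 250 bases before each RefSeq gene start (assembly GRCr8), read 5' to 3' on the strand of the gene, with matches to GGGCGG (the GC box, either strand) and TATAAA (the TATA box, either strand) in capitals. All 10 members matched the table, and Igf2 had 2 starts in it, outer and inner. UMIs counted at the 3' end do not tell from which start a transcript came.
Igf2 outer start, chr1:207253981-207254230, minus strand: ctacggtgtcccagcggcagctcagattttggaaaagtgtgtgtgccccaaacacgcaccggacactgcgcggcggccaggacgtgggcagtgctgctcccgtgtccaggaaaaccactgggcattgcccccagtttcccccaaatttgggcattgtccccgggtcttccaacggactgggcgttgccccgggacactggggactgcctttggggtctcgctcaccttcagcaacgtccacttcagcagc
Igf2 inner start, chr1:207250476-207250725, minus strand: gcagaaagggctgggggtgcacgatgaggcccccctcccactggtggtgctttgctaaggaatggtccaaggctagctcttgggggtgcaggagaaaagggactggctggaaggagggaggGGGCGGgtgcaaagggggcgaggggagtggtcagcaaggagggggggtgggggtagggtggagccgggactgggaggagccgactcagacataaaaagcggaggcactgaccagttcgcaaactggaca
Igfbp2, chr9:81864561-81864810, plus strand: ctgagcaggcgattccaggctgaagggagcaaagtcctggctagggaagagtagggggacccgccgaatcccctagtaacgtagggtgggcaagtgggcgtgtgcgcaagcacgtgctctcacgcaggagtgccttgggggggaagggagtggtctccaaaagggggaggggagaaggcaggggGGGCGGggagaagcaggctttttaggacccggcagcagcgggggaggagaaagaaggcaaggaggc
Igfbp4, chr10:84491221-84491470, plus strand: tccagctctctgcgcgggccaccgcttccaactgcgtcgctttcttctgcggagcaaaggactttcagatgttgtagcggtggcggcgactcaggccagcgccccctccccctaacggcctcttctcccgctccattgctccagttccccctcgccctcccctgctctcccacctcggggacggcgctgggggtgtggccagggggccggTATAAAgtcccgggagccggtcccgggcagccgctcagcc
Igfbp7, chr14:31091486-31091735, plus strand: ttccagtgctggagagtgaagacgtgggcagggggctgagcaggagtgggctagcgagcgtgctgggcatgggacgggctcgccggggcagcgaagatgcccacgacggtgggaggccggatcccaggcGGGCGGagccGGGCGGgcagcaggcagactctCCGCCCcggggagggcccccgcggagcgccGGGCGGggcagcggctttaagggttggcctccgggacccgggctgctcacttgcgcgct
A GC box was found in 3 of these 5 windows, 4 times in that of Igfbp7. It was in 5 of the 11 windows of the 10 members, against 30.5% of all 33469 windows of the same length. A TATA box was found in 1 of the 5, that of Igfbp4, against 12.9% of all windows. The CCAAT box, CCAAT on either strand, was in none of the 5, nor in any of the 11 windows of the 10 members, against 34.0% of all windows. The 5 windows shown were 62.4% to 74.4% G or C, against a median of 51.2% over all windows (quartiles of 44% and 60%). The part of base composition in the motif matches was not tested. The matches describe letters in short windows, and nothing was measured of factors bound there.

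Across all 9 classes, 73 pairs of member and class could be compared, of which 19 were at least 2-fold higher at P7 and 6 at least 2-fold lower. Among all 70957 pairs of gene and class these shares were 12.5% and 8.51%. Igfbp2, Igfbp4 and Igfbp7 were higher at P7 in 9 of 9 classes, with lowest log2 ratios of 0.63, 0.14 and 0.13. Igfbp2 was at least 2-fold higher in 5 classes and Igfbp7 in 5. Without the macrophage-like and neuron-like classes, whose free RNA and depth are described below, 13 of 58 pairs were at least 2-fold higher and 5 lower, against 10.7% and 6.74% of all pairs in those classes.

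Inside the epithelial-like class Igf1 and Igf1r were at least 2-fold lower at P7 and 4 binding proteins at least 2-fold higher. Igf1 was 2139 CPM at P1 and 976 CPM at P7, a log2 ratio of -1.13 (-1.21 to -1.05), against 7.37% of all genes at least 2-fold lower in that class. Igf1r also passed the limit, with a log2 ratio of -1.06 (-2.10 to -0.11), from 35 and 13 UMIs. Neither stayed past 2-fold after thinning to 2000 UMIs, where the log2 ratios were -0.92 for Igf1 and -0.37 for Igf1r. That step left 244 cells of the class at P1 and 140 at P7. Igf1r was also short of 2-fold, at -0.89, with the libraries integrated. The other ligand, Igf2, measured 45.6 and 67.3 CPM. Igfbp3 (394 and 1182 CPM, 1.58), Igfbp2 (387 and 982 CPM, 1.34) and Igfbp4 (263 and 589 CPM, 1.16) were at least 2-fold higher, as was Igfbp7 from 36 and 116 UMIs, against 14.7% of all genes. The median mesenchyme marker, of 23 with at least 50 CPM in mesenchyme, stood in epithelial-like cells at 11.5% of its mesenchymal level at P1 and 14.5% at P7. Igfbp7 stood at 14.9% and 19.04%, Igfbp2 at 20.8% and 23.2% and Igfbp4 at 23.0% and 24.2%, whereas Igf1, at 813% and 324%, and Igfbp3, at 280% and 544%, were above mesenchyme. The part of mesenchymal RNA in the 3 former values was not tested.

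In the endothelial-like cells, Igfbp3 was lower at P7, with 713 CPM (1302 UMIs) at P1 and 198 CPM (327 UMIs) at P7, a log2 ratio of -1.85 (-2.03 to -1.67), against 6.04% of all genes. It was the only one of the 8 members tested there that passed 2-fold, and 11.7% of all genes were at least 2-fold higher in that class. Igfbp7 was 3463 and 6457 CPM, a log2 ratio of 0.90 (0.85 to 0.94), and Igf2 was 43.3 and 26.1 CPM, a log2 ratio of -0.73 (-1.30 to -0.18). In the pericyte-like cells, Igfbp2 had a log2 ratio of 1.15 (0.97 to 1.33) and Igf1r one of -1.11 (-2.35 to 0.03), from 22 and 10 UMIs (-0.93 with doublets removed), against 8.90% of all genes at least 2-fold higher and 6.30% lower. Igf2 in pericyte-like cells was 58.9 and 39.8 CPM, a log2 ratio of -0.56 (-1.005 to -0.13), so its CPM was lower at P7 in both vascular classes. It stood in endothelial-like cells at 46.0% and 10.2% of its mesenchymal level, beside medians of 8.03% and 11.8% for the 23 mesenchyme markers. In pericyte-like cells it stood at 62.6% and 15.6%, beside 19.6% and 21.1%. After thinning, an Igf2 UMI was in 3.36% and 5.77% of endothelial-like and 11.5% and 5.22% of pericyte-like cells. The part of free RNA was not tested.

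In the glia-like cells the levels of all members other than Igf1r were low beside mesenchyme. Igf1 was 34.1 and 12.2 CPM, a log2 ratio of -1.49 (-1.76 to -1.22), against 9.85% of all genes at least 2-fold lower. No member was 2-fold higher there, against 10.4% of all genes. At a mitochondrial limit of 10% this ratio turned to 1.72, so no direction is drawn from it. Different clusters held most of the class at the 2 ages, 1 with 1623 of its P1 cells and another with 2819 of its P7 cells. The median mesenchyme marker stood at 4.36% and 4.11% of its mesenchymal level in glia-like cells, and Igf2, at 6.86% and 3.45%, Igfbp2, at 3.65% and 3.04%, and Igfbp7, at 16.5% and 9.86%, lay near or above it. Igf1r did not, at 105% and 59.0% of its mesenchymal level, from 81 and 53 UMIs. In the dividing glia-like cells Igfbp2 (147 and 392 CPM), Igf2 (14.7 and 30.5 CPM) and Igfbp7 (26.8 and 57.6 CPM) were at least 2-fold higher at P7 and no member was 2-fold lower, against 9.10% and 6.90% of all genes. None of the 3 calls held in every alternative. With doublets removed the log2 ratios of Igf2 and Igfbp7 were 0.13 and 0.13, against 1.05 and 1.11, and with the libraries integrated those of Igfbp2 and Igfbp7 were 0.89 and 0.70. In dividing mesenchyme Igfbp7 alone was at least 2-fold higher (189 and 463 CPM) and none was lower, against 9.23% and 5.32% of all genes.

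The macrophage-like cells had 5 of 8 members at least 2-fold higher at P7 and none lower, against 15.7% and 6.89% of all genes, with log2 ratios of 4.01 for Igfbp7, 1.74 for Igfbp2, 1.59 for Igf2, 1.55 for Igfbp5 and 1.24 for Igfbp3. With doublets removed Igfbp5 was at 0.60, below 2-fold. The mesenchyme markers moved with them. In macrophage-like cells the median of the 23 markers stood at 11.3% of its mesenchymal level at P1 and 21.3% at P7, and Otor, a secreted protein of cochlear mesenchyme, at 15.2% and 23.6%. Igf2 stood at 11.2% and 12.4%, Igfbp2 at 12.1% and 17.7%, Igfbp5 at 10.6% and 23.9% and Igfbp7 at 7.48% and 37.3%. The part of free RNA in these members was not tested. Igf1, at 120% and 89.7% of its mesenchymal level, and Igfbp3, at 74.1% and 113%, stood above all 23 markers at both ages. Igf1 measured 316 and 270 CPM. After thinning, an Igf1 UMI was in 37.6% and 43.4% of the macrophage-like cells, against 4.28% and 2.36% of neuron-like cells.

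In the neuron-like cells, Igfbp5 was 283 CPM at P1 and 123 CPM at P7, a log2 ratio of -1.21 (-1.48 to -0.94), and Igfbp3 was 19.2 and 44.6 CPM, against 21.5% and 20.8% of all genes at least 2-fold lower and higher. The neuron-like cells of the ages were unlike in depth, with medians of 19364 and 6363 UMIs. The class also depended on the clustering. At resolution 1.2 the neuron-like cluster held 288 P1 and 0 P7 cells, and with doublets removed 273 and 0. Clusters led by the neuron and glia lists, of 156 P1 and 142 P7 cells and of 143 and 141, then stayed unnamed. No difference between the ages in neurons is therefore drawn from these ratios. At an equal depth of 2000 UMIs a cell the log2 ratios were -1.83 for Igfbp5 and 1.37 for Igfbp3, against -1.21 and 1.22 at full depth, and with the libraries integrated Igfbp5 was at -0.997, just short of 2-fold.

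**Figure D5:**
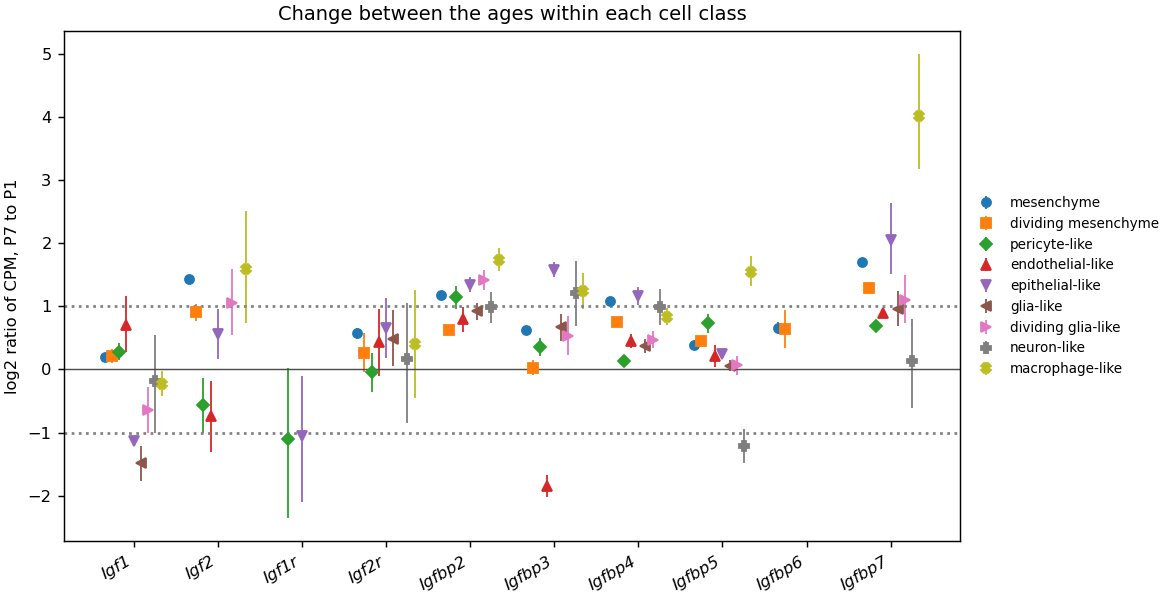
Log2 ratio of CPM, P7 to P1, of each member (x axis) in each class where it had at least 10 CPM at the higher age, with exact 95% counting intervals and dotted lines at 2-fold. Igfbp2, Igfbp4 and Igfbp7 lie above 0 in all 9 classes, and Igfbp3 lies at 1.58 in epithelial-like and -1.85 in endothelial-like cells.

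The binding proteins were also counted cell by cell. The mean number in a cell is the sum of the 6 separate shares of cells. Whether they occurred together beyond those shares was not tested. After thinning to 2000 UMIs, a mesenchyme cell held UMIs of 2.53 of the 6 binding proteins on average at P1 and 3.23 at P7, and 50.1% and 77.0% of cells held at least 3. Pericyte-like cells averaged 2.37 and 2.89, endothelial-like cells 2.55 and 2.40, and epithelial-like cells 1.55 and 1.89. At least 3 were held by 36.2% and 64.2% of pericyte-like and 48.3% and 43.6% of endothelial-like cells. A glia-like cell averaged 0.56 and 0.87, and 55.9% and 39.0% of glia-like cells held none. A UMI of either ligand was found in 41.9% and 55.2% of mesenchyme cells and in 7.51% and 5.05% of glia-like cells.

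The members were also compared by the likeness of their patterns over 30 pairs of cluster and library with at least 50 cells, as Pearson's r of log2(CPM + 5). These pairs share 2 libraries and related clusters and are not independent, so r is a description. Igf2 was most like Igfbp6 (0.84) and Igfbp5 (0.82) among the members, and Igf1 most like Igfbp5 (0.76). Igf2r was most like Igfbp4 (0.74), and the lowest value was that of Igf1r and Igfbp7 (-0.21). Igfbp2 and Igfbp5, which are neighbours on the chromosome in RefSeq, had r of 0.69. Among other genes of at least 10 CPM, Igf2 was most like Tgfb3 (0.91), Gpc3 (0.90) and Egfr (0.90), Igfbp2 most like Otor (0.92), Serpinf1 (0.92) and Gjb6 (0.92), and Igfbp7 most like Ecm1 (0.96), Acvrl1 (0.92) and AC141102 (0.92). Igfbp4 was most like Emilin1 (0.92), Emp1 and Ctsk, Igfbp5 like Serinc2 (0.92), Sulf1 and AABR07070307, and Igfbp6 like Nell1 (0.93), Tmem215 and Hhip. For Igf1 (Ugp2, Adamts2 and Ergic3), Igfbp3 (Lpl, Tm4sf1 and Ugp2) and Igf1r (Cpne3, Zbtb47 and Rbm26) the highest r was 0.80 or lower, and for Igf2r (Ptprk, Pawr and Rras) it was 0.87.

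Of 64 other genes of the pathway, 59 were found by symbol and 34 had at least 10 CPM in the higher library. Over all cells none of these was at least 2-fold higher at P7 and 4 were at least 2-fold lower, against 9.74% and 6.57% of all genes, with a median log2 ratio of -0.13. They included Igfbpl1, an IGF binding protein-like gene, at 12.4 and 1.69 CPM, Plagl1, an imprinted zinc finger factor known to regulate imprinted genes, at 30.6 and 6.62 CPM, and Igf2bp3, an RNA-binding protein named for Igf2 mRNA, at 13.5 and 3.07 CPM. The log2 ratios of these genes were -2.87, -2.21 and -2.14. Plagl1 also led a P1 mesenchyme cluster.

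The 16 signal relays tested had a median log2 ratio of -0.16, and none was at least 2-fold higher. The relays with the highest level were Pik3r1, a regulatory subunit of PI3K, at P1, with 157 and 123 CPM, and Akt1, a kinase downstream of the receptor, at P7, with 136 and 171 CPM. The 5 binding protein proteases and inhibitors tested had log2 ratios from 0.04 to 0.46, with Mmp2 at 405 and 558 CPM. The 4 lysosomal partners of Igf2r had ratios from -0.08 to 0.74, with the protease gene Ctsl at 290 and 475 CPM. Cdkn1c, an imprinted inhibitor of the cell cycle, measured 386 and 506 CPM, Igf2bp2 60.0 and 45.3 CPM, and Socs2, a feedback inhibitor of growth hormone signalling, 32.2 and 29.6 CPM. Irs2, which links the receptor to PI3K, measured 21.2 and 17.8 CPM. Of the insulin genes, Ins2 had 12 UMIs at P1 and 62 at P7, and Ins1 had no UMI in either library, which allows up to 3 UMIs of 98005495 at P1 and of 93080129 at P7.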

How the data were processed

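Cochlear duct cells were sequenced as 1 droplet library per age. The authors counted UMIs with Cell Ranger (3.1.0 by the file header) against the rat genome rn6, and the deposited values are these whole-number counts per gene and barcode, not normalized. The submitters' processing notes also name bcl2fastq and Seurat 3.1.1. Per library, 114285848 counts over 14068 barcodes were deposited at P1 and 101264868 over 14501 at P7, and a low gene such as Igf1r has few counts per class.

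The study's limits decided which barcodes were kept (over 500 genes but below 5000, 500 or more UMIs, mitochondrial share below 25%). Both libraries were merged and clustered in Seurat 5.3.0 (R 4.3.3, Matrix 1.6.5), with 2000 variable genes of which 1859 remained once the members, the pathway genes and all markers were left out, 10 principal components, 20 neighbours and a resolution of 0.8. Scrublet in scanpy 1.11.5 called 622 and 775 doublets, which were kept except in an alternative. A cluster was named by its highest marker list, with at least 3 markers found in at least 10% of its cells, and classes other than mesenchyme needed a mean log2 ratio to other cells of at least 1. A cluster stayed unnamed where its 10 leading genes held more markers of another type. The naming rule took its final form with the clusters in view.

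Sums, levels and intervals came from Python (3.11.15), using scipy 1.17.1, numpy 2.4.6 and pandas 2.3.3. Intervals are exact Poisson for levels, conditional binomial for ratios and Clopper-Pearson for shares. A value was counted as past 2-fold only for genes of at least 10 CPM in the higher library of the comparison. For shares of cells, each cell was thinned to 2000 UMIs, which left out 252 cells at P1 and 711 at P7. The steps were tested on simulated data.

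The genes named are the 10 members, pathway genes past 2-fold with the highest of each list, the 3 genes most like each member, and markers or leading genes of clusters. Igfbp1 and the insulin genes were named besides these. The mesenchyme markers used to gauge free RNA and the splits by Sox2 and Tectb were added after values had been seen. The members and lists were chosen with earlier results of these data known. Irs4, Pappa, H19, Zac1 and Meg3 were not analysed here, and 1 pathway gene past 2-fold is not reported here. Alternatives were integration by canonical correlation, other resolutions, cell limits, doublet removal, thinning, other scalings and fixed class shares.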

Additional observations from a re-analysis of the deposited data

Results flagged for a closer look

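Opposite differences between the ages in separate classes were seen for a pair of binding proteins, and the difference between the classes was not tested in either, since each age is 1 library. Igfbp3 had a log2 ratio, P7 to P1, of 1.58 in epithelial-like cells and of -1.85 in endothelial-like cells. At P7, 17 epithelial-like cells had at least 10 Igfbp3 UMIs. The share of epithelial-like cells with an Igfbp3 UMI after thinning was 21.3% of 244 cells at P1 and 17.9% of 140 cells at P7. Igfbp5 had a log2 ratio of 1.55 in macrophage-like cells, 0.60 with doublets removed, and of -1.21 in neuron-like cells, -0.997 with the libraries integrated and -1.83 at an equal depth of 2000 UMIs a cell. Igfbp5 stood in macrophage-like cells at 10.6% and 23.9% of its mesenchymal level, beside medians of 11.3% and 21.3% for 23 mesenchyme markers. The neuron-like cells differed in median depth between the ages, at 19364 and 6363 UMIs. At resolution 1.2 the neuron-like cluster held 288 P1 and 0 P7 cells.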

How the results depend on the processing

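No paired analysis was possible because each age is 1 library, and for the same reason no replicate could be left out. The count of members at least 2-fold apart over all cells, 2 with CPM, was 1 with scaling to UMIs outside ribosomal protein, mitochondrial and haemoglobin genes, 1 with the mean over cells of counts scaled to 10000 per cell, and 4 with class shares fixed at the mean of both libraries, where Igfbp2 (1.15) and Igfbp4 (1.02) joined Igf2 (1.33) and Igfbp7 (1.197). Igf2 stayed past 2-fold in each of the 7 alternatives for that count, with log2 ratios from 1.10 to 1.33, and Igfbp7 ranged from 0.88 to 1.197, below 2-fold in 4 of them. The median gene's log2 ratio ranged from 0.04 to 0.15 over these settings. The count of pathway genes past 2-fold was 15 with no minimum level, against 4, since genes with few UMIs then count. Within glia-like cells the log2 ratio of Igf1 was 1.72 at a mitochondrial limit of 10%, against -1.49, and a cluster of 311 P1 and 107 P7 cells was unnamed under that limit; the cause was not tested. Igf2 in dividing glia-like cells was also below 2-fold at that limit (0.42) and after thinning (0.83), and Igfbp7 there at that limit (0.86) and at resolution 0.4 (0.93). The other counts over members or lists stayed within 1.5 times their value. The highest class of Igfbp6 at P7 was mesenchyme in 2 of 7 alternatives and dividing mesenchyme in the rest, and that of Igf2 at P7 was mesenchyme in 6 of 7. Thinned macrophage-like cells held no Igfbp7 UMI at P1, so that ratio could not be computed. Depth limits Igf1r most, with 475 UMIs at P7.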

Other observations

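The cells that stayed unnamed carried the members too. At P7 they held 14.1% of Igf1, 12.3% of Igf2 and 15.5% of Igfbp4 UMIs. The P7 cluster led by Pmch, Asb9, LOC689064, LOC103694857 and Hba-a2 (1087 cells) measured 336 CPM of Igf1, 180 CPM of Igf2 and 2784 CPM of Igfbp4, levels within the range of the mesenchyme clusters of that age. The P1 cluster led by the pigment cell genes Pmel and Mlana (249 cells) measured 1102 CPM of Igfbp2 and 961 CPM of Igfbp5.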
